A study of Mus musculus with 6 samples.

Results

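The genes described here are the 9 listed genes of MHC class I antigen presentation, H2-K1, H2-D1, H2-T23, B2m, Tap1, Tap2, Tapbp, Erap1 and Nlrc5. They were taken by symbol from a table of read counts for 49315 mouse gene identifiers, and all 9 were among the 16956 genes that passed the filter on low counts. The libraries were made from bone marrow of mice kept on a diet the labels call HFSC after hindlimb ischemia, in which the blood supply of a leg is cut off by surgery. The 3 WT libraries (replicates 1, 3 and 4) came from mice with the floxed, undeleted miR-181a2b2 locus (miR-181a2b2flox/flox), and the 3 KO libraries (replicates 2, 3 and 4) from mice without it (miR-181a2b2-/-). Diet and surgery were thus shared by both groups. For age, sex and the route by which the floxed locus was deleted, nothing is given in the sources used here. Whether each library is a different mouse is likewise unstated, and p-values therefore describe the spread between these samples, which may be technical.

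MHC class I molecules show peptides from inside a cell to CD8 T cells and natural killer cells. The proteasome cuts proteins into peptides, the TAP transporter carries these into the endoplasmic reticulum, Erap1 trims them there, and tapasin helps to load them onto a heavy chain bound to beta-2-microglobulin. Nearly all nucleated marrow cells carry class I, its genes are induced by interferons, and the protein Nlrc5 activates the promoters of the heavy chains, B2m and the TAP and immunoproteasome genes.

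Total counts lay between 33861440 and 40359093 per library, and the lowest count of any of the 9 genes in any library was 1220 (Nlrc5 in KO replicate 2). The first principal component of all genes tested placed KO replicate 4 at 53.9 against 9.09 and 12.02 for the other KO libraries. Xist exceeded 1 CPM (counts per 1000000 of the library's TMM-scaled total) in WT replicates 3 and 4 and KO replicate 2, so the groups were mixed in this respect. Mir181a-2 and Mir181b-2 had 0 counts in all libraries, which in RNA selected for poly(A) tails checks neither genotype. The extraction text in the labels names white adipose tissue, whereas neutrophil markers summed to between 48856 and 87832 CPM in every library and 8 adipocyte markers to between 55.6 and 84.2 CPM.

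The deleted locus encodes miR-181a and miR-181b, short RNAs that act on messenger RNAs with letters complementary to bases 2 to 8, the seed. Both mature sequences, from RefSeq (GRCm38.p6), are shown because they share a seed, in capitals, that is matched in the 3' UTRs of the classical heavy chains. miR-181a-5p lies on chromosome 2 at 38852741 to 38852763 and miR-181b-5p at 38853845 to 38853868, both on the plus strand.
miR-181a-5p: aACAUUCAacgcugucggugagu
miR-181b-5p: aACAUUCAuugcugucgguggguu
The letters TGAATGT, complementary to the seed, were looked for on the transcript strand of the longest annotated 3' UTR of each gene (GENCODE M21). H2-K1 held an 8mer (TGAATGT followed by A), and H2-D1 held TGAATGT without that A. The stretch shown around the match lies on chromosome 17 at 33996157 to 33996180 on the minus strand for H2-K1. For H2-D1 it lies at 35267161 to 35267184 on the plus strand. The match, with the complementary letters in capitals, lay 304 bases into the UTR of H2-K1 and 303 into that of H2-D1, with the same run of bases before it.
H2-K1: gaataataattTGAATGTAacctt
H2-D1: gaataataattTGAATGTgggtgg
Tap1, Tapbp and Erap1 held a 6mer (GAATGT) and no longer match, and H2-T23, B2m, Tap2 and Nlrc5 held none. Among 13748 tested genes with an annotated 3' UTR, 6.11% held the 8mer and 18.9% TGAATGT with or without the A. The median log2 fold change (KO minus WT) was -0.08 in the genes with an 8mer, the class of H2-K1, and -0.05 in those with TGAATGT with or without the A, the class that takes in H2-D1. It was 0.00 over all 13748. A match is a description of letters and not a tested site.

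Promoter sequences were available from RefSeq (GRCm38.p6, from 250 bases before to 50 after each start) for 7 of the 9 genes, all but Tap2 and Nlrc5. Letters bound by NF-kB (4 G, ATT and 4 C in a row), by interferon regulatory factors (AANNGAAA, and a longer form that it overlaps, GAAA repeated after 2 bases), and by the factors with which Nlrc5 acts (TGACG and ATTGG, parts of the X2 and Y boxes) were searched on both strands. These letters were chosen with the promoters in view. H2-K1 and H2-D1 both held the NF-kB letters, as did 0.0304% of all 32851 promoters in the table, followed at the same distance by AANNGAAA read on the opposite strand as TTTCACTT. The stretch is shown for H2-K1 (chromosome 17, 34000429 to 34000458, minus strand), H2-D1 (35262923 to 35262952, plus strand) and H2-Q6 (35424677 to 35424706, plus strand), a class Ib heavy chain gene whose counts are given below, with both motifs in capitals.
H2-K1: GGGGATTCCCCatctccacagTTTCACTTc
H2-D1: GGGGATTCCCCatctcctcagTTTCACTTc
H2-Q6: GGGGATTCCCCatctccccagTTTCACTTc
Over these 30 bases H2-D1 and H2-Q6 each differed from H2-K1 at 1 base. AANNGAAA was found in 5 of the 7 promoters (H2-K1, H2-D1, H2-T23, B2m and Erap1) and in 23.9% of all promoters. TGACG followed after 20 bases by ATTGG was found in 3 of the 7, H2-K1, H2-D1 and B2m, and in 0.0944% of all promoters. H2-T23 and Tapbp, which also gave positive values below, did not hold it, and H2-M3, a heavy chain gene outside the 9, did. The stretch is shown for H2-K1 (34000359 to 34000388), H2-D1 (35262993 to 35263022) and B2m (chromosome 2, 122147609 to 122147638, plus strand).
H2-K1: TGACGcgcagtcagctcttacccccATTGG
H2-D1: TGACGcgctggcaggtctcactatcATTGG
B2m: TGACGacctccggatctgagtccggATTGG
H2-T23, B2m and Erap1 held GAAA repeated after 2 bases, found on either strand in 3.44% of all promoters. The stretch shown around it lies at 122147538 to 122147567 for B2m and on chromosome 13 at 74639839 to 74639868 for Erap1. For H2-T23 it lies on chromosome 17 at 36032806 to 36032835.
B2m: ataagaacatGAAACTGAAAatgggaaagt
Erap1: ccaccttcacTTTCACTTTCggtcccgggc
H2-T23: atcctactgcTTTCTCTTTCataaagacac

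None of the 9 genes passed the test between KO and WT marrow. The classical and nonclassical heavy chains and beta-2-microglobulin had levels 1.21 to 1.26 times those of WT, the transporter and loading genes lay within 0.921 to 1.08 times WT, and Nlrc5, the activator of the heavy chain promoters, lay at 0.828 times WT. With edgeR's quasi-likelihood test, adjusted by Benjamini and Hochberg over all 16956 genes with a threshold of 0.05, 0 of 9 passed, where 2.46% of all genes did (0.938% higher and 1.52% lower). At an unadjusted p under 0.05 there were 3 higher genes (H2-D1, H2-T23 and B2m) and 1 lower (Nlrc5), against 11.7% higher and 12.2% lower over all genes. DESeq2 and limma also called 0 of the 9, against 9.68% and 6.23% of all genes. The median log2 fold change of the 9 genes was 0.11, beside -0.01 over all genes tested.

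**Figure D1:**
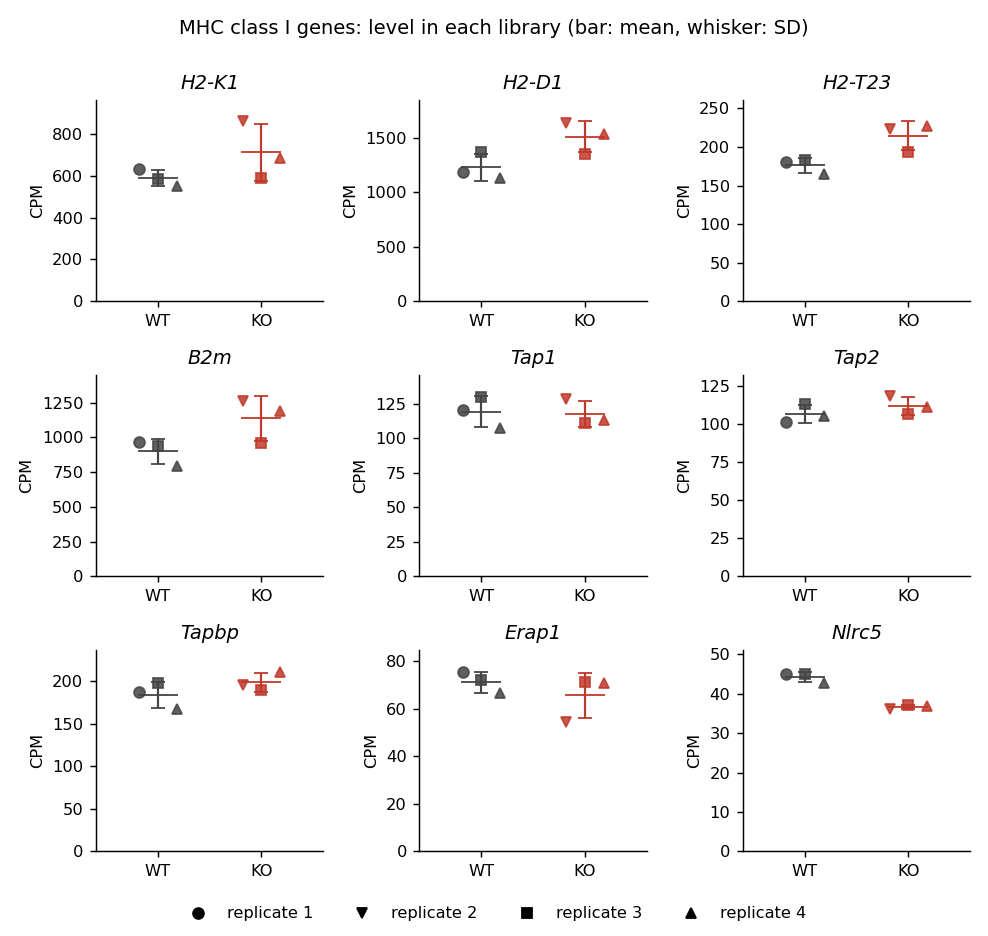
Level of each of the 9 class I genes in CPM (vertical axes, linear and starting at 0) in the 3 WT and 3 KO libraries, with a marker shape for each replicate number, a bar for the mean and whiskers for the SD. The KO libraries of Nlrc5 lie between 36.2 and 37.1 CPM below all WT libraries, and those of H2-T23 lie above all WT libraries, while the groups of the other 7 genes overlap.

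Per length of exons, the 9 genes spanned a wide range of levels. B2m was the highest at 1185 CPM per kilobase of exon (range over the 6 libraries 925 to 1466), followed by H2-D1 at 532 (438 to 635), H2-K1 at 221 (188 to 293) and H2-T23 at 67.6 (57.1 to 78.7). Below them came Tapbp at 52.7 (46.1 to 58.1), Tap2 at 28.9 (26.8 to 31.2), Tap1 at 21.6 (19.6 to 23.7), Erap1 at 9.39 (7.49 to 10.3) and Nlrc5 at 4.77 (4.26 to 5.31). Of neighbours in this order, H2-T23 and Tapbp overlapped in range and the others did not. Exon lengths join the exons of all annotated transcripts and so make the level of a gene with long rare isoforms too low.

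H2-K1 (ENSMUSG00000061232, chromosome 17, 33996017 to 34000347) encodes a classical heavy chain, the part of the molecule that holds the peptide. Its level was 632, 583 and 552 CPM in WT replicates 1, 3 and 4, and 859.8, 591 and 685 CPM in KO replicates 2, 3 and 4. KO replicate 3 lay within the WT range and KO replicate 2 well above every other library. The means were 589 ± 40.2 and 712 ± 136 CPM (SD, n = 3 each). KO minus WT on the log2 scale, 0.27 ± 0.14 (SE, 95% interval -0.04 to 0.59) did not pass (edgeR adjusted p = 0.269). It was 0.12 without KO replicate 2 (edgeR adjusted p = 0.601).

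H2-D1 (ENSMUSG00000073411, chromosome 17, 35262730 to 35267499) is the other classical heavy chain gene of the list. It was the most abundant heavy chain and lay above 99.7% of all genes tested in CPM. It was at 1192, 1368 and 1130.3 CPM in WT replicates 1, 3 and 4, and at 1638, 1358 and 1539 CPM in KO replicates 2, 3 and 4. WT replicate 3 and KO replicate 3 were nearly level, so the groups overlapped. The log2 fold change was 0.30 ± 0.12 (SE, 95% interval 0.03 to 0.57), that is 1.23 times WT with an interval from 1.02 to 1.48, and did not pass (edgeR adjusted p = 0.171). H2-K1 and H2-D1 are close relatives, and the treatment of reads that match both is unknown from the labels, which makes their split uncertain. With their counts summed as 1 feature the log2 fold change was 0.29 ± 0.12 (edgeR adjusted p = 0.193), and with 12 tested heavy chain genes of the H2-K, H2-D, H2-Q and H2-T regions summed it was 0.24 ± 0.12 (edgeR adjusted p = 0.271).

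H2-T23 (ENSMUSG00000067212, chromosome 17, 36029773 to 36032855) encodes Qa-1, a nonclassical heavy chain that is read by inhibitory and activating receptors of natural killer cells. Its level was 181, 183 and 165 CPM in the WT libraries (replicates 1, 3 and 4) and 223, 193 and 227 CPM in the KO libraries (replicates 2, 3 and 4). All KO libraries lay above all WT libraries, the single case among the 9 genes, where 14.4% of all genes tested had such an order. The log2 fold change was 0.28 ± 0.10 (SE, 95% interval 0.06 to 0.50, edgeR adjusted p = 0.127).

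B2m (ENSMUSG00000060802, chromosome 2, 122147686 to 122153083) encodes beta-2-microglobulin, the light chain that every class I heavy chain needs to reach the cell surface. It lay at 966, 940.5 and 796 CPM in WT replicates 1, 3 and 4 and at 1260.5, 958 and 1192 CPM in KO replicates 2, 3 and 4. KO replicate 3 fell between the WT values, and the other KO libraries lay above them. The log2 fold change was 0.34 ± 0.13 (SE, 95% interval 0.04 to 0.63, edgeR adjusted p = 0.165), so the interval allows up to 1.55 times the WT level. With the trends of each library on exon length and on GC content taken out, the estimate was 0.22 (edgeR adjusted p = 0.333). B2m, with 860 bases of exon, was short beside the median of 3781 bases over all genes tested.

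**Figure D2:**
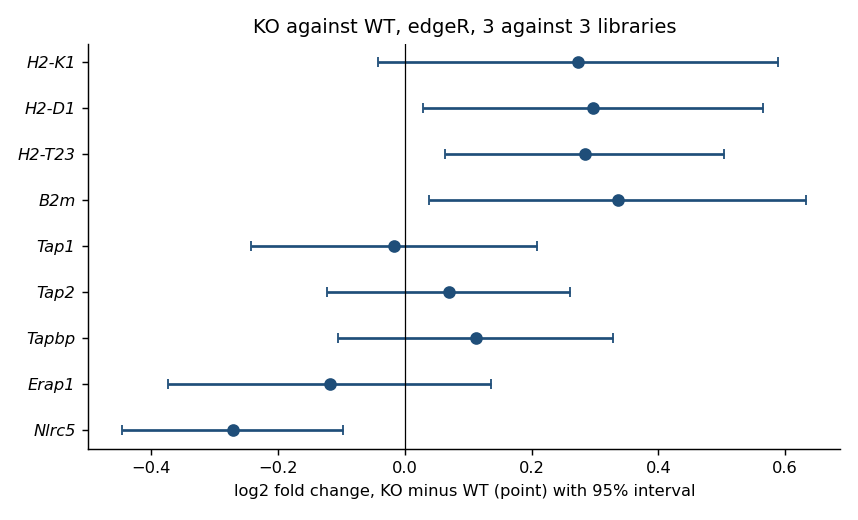
Log2 fold change of KO minus WT (horizontal axis) for the 9 class I genes (rows) with 95% intervals from the edgeR fit over all genes. The intervals of H2-D1, H2-T23 and B2m lie above 0, that of Nlrc5 lies below 0 and the other 5 include 0, and none of the 9 passed adjustment over all genes.

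The genes of peptide supply lay close to their WT levels. Tap1 (ENSMUSG00000037321, chromosome 17, 34187553 to 34197225), a subunit of the peptide transporter, was at 120.4, 129.9 and 107 CPM in WT replicates 1, 3 and 4 and at 129, 112 and 113 CPM in KO replicates 2, 3 and 4. The groups covered nearly the same range, with a log2 fold change of -0.02 ± 0.10 (SE, 95% interval -0.24 to 0.21, edgeR adjusted p = 0.936). Tap2 (ENSMUSG00000024339, chromosome 17, 34203527 to 34216321), the other subunit, was at 101, 113 and 106 CPM in WT and at 118, 106 and 111 CPM in KO in the same order of replicates. Its log2 fold change was 0.07 ± 0.09 (95% interval -0.12 to 0.26, edgeR adjusted p = 0.659). The 2 subunits form the transporter together, and the 95% interval of Tap1 ran from 0.845 to 1.16 times WT.

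Tapbp (ENSMUSG00000024308, chromosome 17, 33915899 to 33929292) encodes tapasin, which bridges TAP and the empty heavy chain. Its WT libraries lay at 187, 197 and 167 CPM and its KO libraries at 196, 189 and 211 CPM (replicates in the same order), with a log2 fold change of 0.11 ± 0.10 (SE, edgeR adjusted p = 0.517) that ran from 0.05 to 0.17 over the fits without 1 library. Erap1 (ENSMUSG00000021583, chromosome 13, 74639568 to 74693201), the aminopeptidase that trims peptides to the length class I holds, was at 75.3, 71.9 and 66.5 CPM in WT and at 54.5, 71.3 and 70.9 CPM in KO. KO replicate 2 was below all other libraries and the other KO libraries lay within the WT range. Its log2 fold change of -0.12 ± 0.11 (SE, edgeR adjusted p = 0.561) became 0.00 without KO replicate 2 (edgeR adjusted p = 0.988). Exons of Erap1 overlap those of Cast on the opposite strand over 834 bases, those of Tapbp overlap Gm19412 over 904, those of Tap2 overlap Gm15821 over 533 and those of Tap1 overlap Psmb9 over 212. Whether the counting used strand is unknown from the labels, so reads of these stretches may belong to either gene.

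Nlrc5 (ENSMUSG00000074151, chromosome 8, 94434356 to 94527272), the transactivator of class I genes, gave the smallest p of the 9. It was at 45.0, 45.1 and 42.8 CPM in WT replicates 1, 3 and 4 and at 36.2, 37.1 and 36.7 CPM in KO replicates 2, 3 and 4. All KO libraries lay below all WT libraries, as they did for 14.7% of all genes tested. The means were 44.3 ± 1.32 and 36.7 ± 0.46 CPM (SD, n = 3 each). A log2 fold change of -0.27 ± 0.08 (SE, 95% interval -0.45 to -0.10) missed the threshold (edgeR adjusted p = 0.0864). With library totals as the only scaling it passed at -0.34 (edgeR adjusted p = 0.0481, where 2.89% of all genes were called and 2.38% called lower), while with length and GC trends taken out it was -0.16 (edgeR adjusted p = 0.263). Nlrc5 had the longest exons of the 9, at 8493 bases.

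The values of the heavy chains and B2m had the opposite sign to that of Nlrc5, and their levels were compared within libraries, where a common scaling cancels. Trends on exon length and GC content do not cancel there, and they were not taken out of the ratios. The 5 ratios were chosen after the values were seen, so their p-values describe the order of the libraries and test no difference. How often ratios of other gene pairs have such an order was not examined. Summed H2-K1 and H2-D1 were 40.5, 43.3 and 39.3 times Nlrc5 in WT replicates 1, 3 and 4 and 69.0, 52.5 and 60.5 times in KO replicates 2, 3 and 4. Every KO ratio exceeded every WT ratio, and the exact two-sided permutation p of 0.1 (0.167 adjusted over the 5 ratios) is the smallest that 3 against 3 libraries can give. Relative to Tap1, the same sum was 15.1, 15.0 and 15.7 in WT and 19.4, 17.5 and 19.7 in KO, again without overlap (exact permutation p = 0.1). B2m was 21.5, 20.8 and 18.6 times Nlrc5 in WT and 34.8, 25.8 and 32.4 times in KO (exact permutation p = 0.1). B2m relative to the sum of H2-K1 and H2-D1 was 0.495 ± 0.030 in WT and 0.511 ± 0.023 in KO (SD, n = 3 each, exact permutation p = 0.5). H2-D1 was 2.09 ± 0.233 times H2-K1 in WT and 2.15 ± 0.213 times in KO (exact permutation p = 0.9). These are ratios of CPM and not of molecules.

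**Figure D3:**
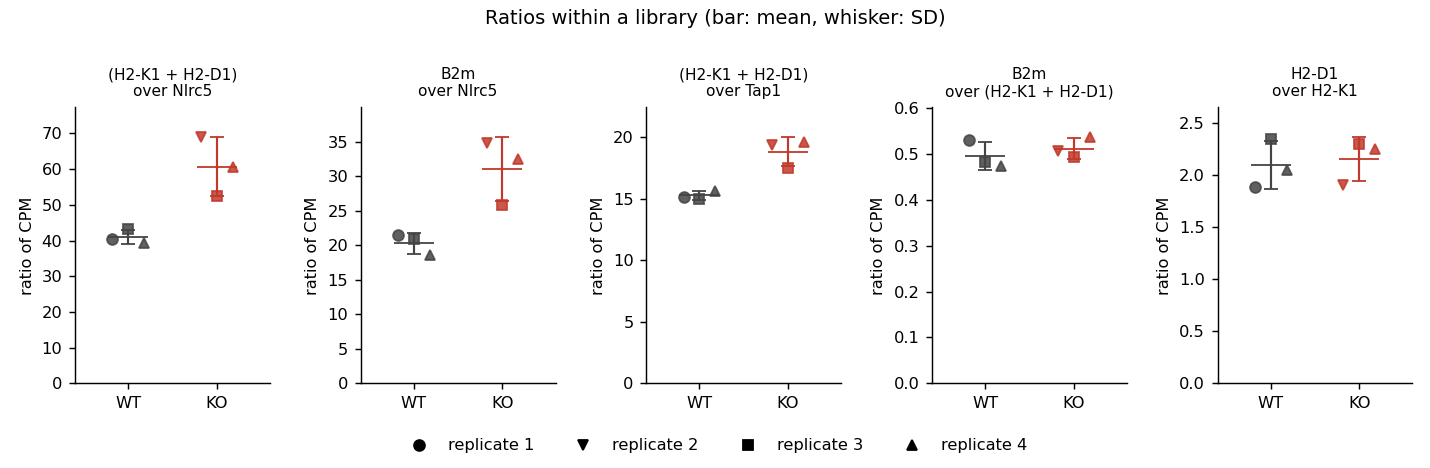
Ratios of CPM within a library (vertical axes, linear and starting at 0) in the 3 WT and 3 KO libraries, with a bar for the mean and whiskers for the SD. The summed heavy chains over Nlrc5 lie between 39.3 and 43.3 in WT and between 52.5 and 69.0 in KO, while B2m over the summed heavy chains and H2-D1 over H2-K1 overlap between the groups.

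Of 25 measured genes of the list of further heavy chains and class I-like molecules, 16 were tested, 0 passed in edgeR, DESeq2 or limma, and at an unadjusted p under 0.05 there was 1 higher (H2-M2, at most 0.720 CPM in any library) and 1 lower. The lower gene was Mr1, which shows vitamin B2 metabolites to MAIT cells, with a log2 fold change of -0.56 ± 0.18 (SE, edgeR adjusted p = 0.113). H2-K2, a neighbour of H2-K1, had a log2 fold change of 0.35 ± 0.16 (edgeR adjusted p = 0.219), and 0.19 without WT replicate 1. The median of the 16 tested genes was 0.04. Over all genes tested, 11.7% were higher and 12.2% lower at an unadjusted p under 0.05 in edgeR.

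In H2-Q4, H2-Q5, H2-Q6 and H2-Q7, which were singled out after their values were seen, the KO libraries lay apart from each other. H2-Q6 was at 63.8, 54.7 and 58.1 CPM in WT replicates 1, 3 and 4, at 84.2 CPM in KO replicate 2, and at 38.3 and 41.7 CPM in KO replicates 3 and 4. KO replicate 2 was thus above all WT libraries and the other KO libraries below them. H2-Q4 (119.9 CPM in KO replicate 2, 72.3 and 75.3 CPM in KO replicates 3 and 4, 84.5 to 92.0 CPM in WT) and H2-Q5 (21.9, 12.01 and 10.9 CPM against 15.3 to 15.5 CPM in WT) had the same order. H2-Q7 had 88.0 CPM in KO replicate 2 and 48.7 and 54.5 CPM in the other KO libraries, against 53.7 to 66.6 CPM in WT. Over all 6 libraries their log2 fold changes lay between -0.11 (H2-Q6) and 0.09 (H2-Q7). Without KO replicate 2 they were -0.55 for H2-Q6, -0.43 for H2-Q5, -0.25 for H2-Q4 and -0.21 for H2-Q7. These values are a description with no test, since the genes were singled out for the place of that library. The order was not that of the H2-Q genes alone or of all of them. H2-T10, of the neighbouring T region, had it too, at 10.98 CPM in KO replicate 2. It was at 6.09 and 7.36 CPM in KO replicates 3 and 4, against 8.12 to 9.61 CPM in WT. H2-Q10 was at 69.3 CPM in KO replicate 2, just above the WT range of 34.9 to 68.3 CPM. In KO replicates 3 and 4 it was at 48.6 and 44.5 CPM, within that range. KO replicate 2 was also the highest library for H2-K1, H2-D1, B2m and H2-T22. H2-T24, also of the T region, was instead lowest in KO replicate 2, at 81.9 CPM against 86.5 to 101.3 CPM in the other libraries. The H2-Q genes are related to each other, and their transcripts were not compared here, so how reads were shared among them is uncertain.

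Summed markers of B cells, like H2-Q4 to H2-Q7, were higher in KO replicate 2 than in the other KO libraries. None of the 14 B cell markers passed in edgeR or limma, and DESeq2 called 4, against 9.68% of all genes tested. All 14 had negative log2 fold changes. Of these markers 4 were at an edgeR p under 0.05 before adjustment, against 12.2% lower over all genes tested. They summed to 463 CPM in KO replicate 2 and to 153 and 171 CPM in KO replicates 3 and 4. Of these markers, 0 were at 0 counts. In WT replicates 1, 3 and 4 the sums were 445, 363 and 584 CPM. H2-Q4 shared that WT order, and H2-Q5, H2-Q6 and H2-Q7 did not. The B cell sum of KO replicate 2 lay within the WT range, whereas its H2-Q4 to H2-Q7 values lay above all WT libraries. KO replicate 2 was also the KO library with Xist above 1 CPM. The part of either in the H2-Q and H2-K1 values was not tested beyond a fit with Xist as a covariate, in which H2-K1 had a log2 fold change of 0.31 (edgeR adjusted p = 0.26).

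**Figure D4:**
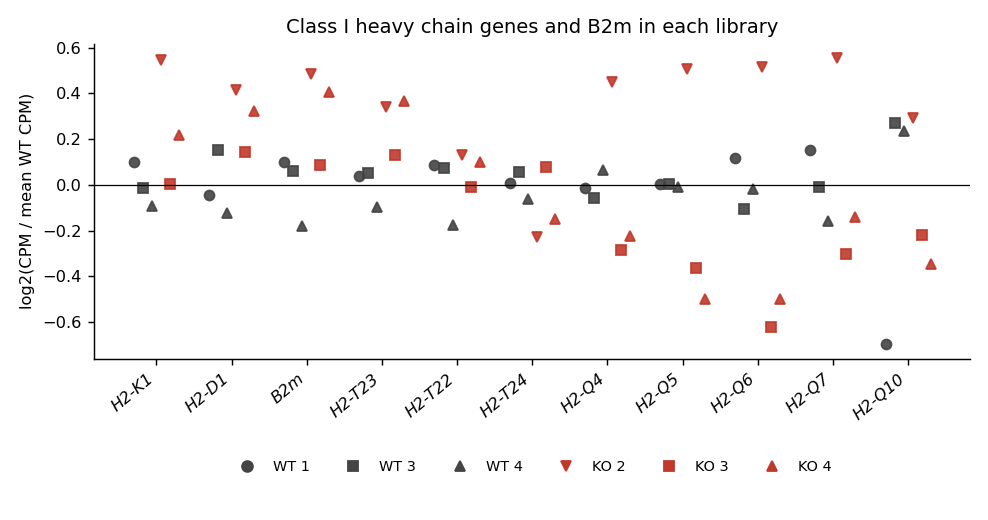
Log2 of the CPM in each library over the mean WT CPM (vertical axis) for heavy chain genes and B2m (horizontal axis), with WT libraries in grey and KO libraries in red. KO replicate 2, the downward triangle, lies above all other libraries for H2-K1, H2-D1, B2m, H2-T22, H2-Q4 to H2-Q7 and H2-Q10. For H2-T23 KO replicate 4 lies above it, and for H2-T24 it is the lowest library.

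In bulk marrow, fewer cells of a type and less RNA per cell cannot be told apart. For comparison with the counts below, edgeR called 2.46% of all genes tested, DESeq2 9.68% and limma 6.23%. At an unadjusted p under 0.05 in edgeR, 11.7% were higher and 12.2% lower. Of 16 neutrophil markers 3 rose (S100a8, Elane and Camp), 0 fell and 13 did not pass in edgeR, while DESeq2 called 14 and limma 11 and all 16 had positive values. Their sum was 48856 to 62096 CPM in WT and 72564 to 87832 CPM in KO without overlap. Of 14 erythroid markers 3 fell and 11 did not pass in edgeR, DESeq2 called 5 and limma 4, and all 14 had negative values, with sums of 16649 to 36414 CPM in WT and 15753 to 26781 CPM in KO. Of 12 macrophage and monocyte markers 1 rose (Ly6c2) and 1 fell (Siglec1) in edgeR, DESeq2 called 4 and limma 3, and sums of 1497 to 1722 CPM in WT and 1769 to 2068 CPM in KO did not overlap. Of 8 plasma cell markers 1 rose, Xbp1 (log2 fold change 0.55 ± 0.11, edgeR adjusted p = 0.0427), and DESeq2 called 2 and limma 1. Plasma cell sums were 1241 to 1931 CPM in WT and 2287 to 2474 CPM in KO without overlap. Of 6 tested skeletal muscle markers 1 fell, Tnnt3 (-0.99 ± 0.21, edgeR adjusted p = 0.0473), which DESeq2 and limma called too, with sums of 13.6 to 20.4 CPM in WT and 10.4 to 17.1 CPM in KO. None of 5 tested adipocyte markers passed in edgeR, DESeq2 or limma, 2 were higher before adjustment, and the sums of all 8 were 55.6 to 63.5 CPM in WT and 67.8 to 84.2 CPM in KO without overlap. None of 8 endothelial markers passed in any of these tools, with 1 higher and 1 lower before adjustment and sums of 115 to 146 CPM in WT and 96.7 to 129 CPM in KO. None of 12 T and natural killer cell markers and none of 9 dendritic cell markers passed in edgeR. Unadjusted p was under 0.05 for 2 of the former and 1 of the latter, and DESeq2 and limma each called 1 and 0. No marker of these lists was at 0 counts over all libraries, and their part in the class I values was not tested.

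Genes that feed peptides into the pathway were examined next, from whole lists of the pathway, which were drawn up with earlier results of these data known. The immunoproteasome is the form of the proteasome whose inducible subunits favour peptides that class I can hold. Of its 6 measured genes 0 passed in edgeR and 5 were higher by unadjusted p under 0.05. DESeq2 called 3 of them and limma 1. For this list and those below, the shares over all genes tested were 11.7% higher and 12.2% lower by unadjusted p in edgeR. By adjusted p, edgeR called 2.46% of all genes tested, DESeq2 9.68% and limma 6.23%. Psmb8, a catalytic subunit whose gene adjoins Tap1 and Tap2, was at 105, 92.5 and 86.0 CPM in WT replicates 1, 3 and 4 and at 118, 115 and 145 CPM in KO replicates 2, 3 and 4, without overlap. Its log2 fold change was 0.42 ± 0.12 (SE, edgeR adjusted p = 0.0826). Psmb10, another catalytic subunit, had 0.39 ± 0.12 (edgeR adjusted p = 0.102) and Psme2, part of the PA28 cap that opens the proteasome, 0.39 ± 0.12 (edgeR adjusted p = 0.106). The list median was 0.37. The constitutive catalytic subunits that these replace, Psmb5, Psmb6 and Psmb7, had log2 fold changes of 0.32, 0.33 and 0.22 with 0 of 3 past the threshold in edgeR, DESeq2 or limma and 2 at an unadjusted p under 0.05. Without KO replicate 4 the values were smaller, 0.25 for Psme2, 0.19 for Psmb5 and 0.14 for Psmb7, and Psmb5 was at 0.20 with length and GC trends taken out. The inducible and constitutive forms thus gave values of similar size, and their difference was not tested.

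Of 15 chaperones, editors and trimming enzymes 1 rose, 0 fell and 14 did not pass in edgeR. By unadjusted p under 0.05 in edgeR, 4 were higher and 0 lower, and DESeq2 and limma called 1 each. Npepps, the puromycin-sensitive aminopeptidase that trims peptides in the cytosol, was at 152, 154 and 156 CPM in WT replicates 1, 3 and 4 and at 197, 209 and 223 CPM in KO replicates 2, 3 and 4, without overlap. It rose with a log2 fold change of 0.44 ± 0.09 (SE, edgeR adjusted p = 0.0417), a call lost without any of WT replicates 1, 3 and 4 or KO replicate 4 (edgeR adjusted p of 0.118, 0.0714, 0.140 and 0.154) and with Xist as a covariate (edgeR adjusted p = 0.0711). The log2 fold change itself stayed between 0.40 and 0.49 over the fits without 1 library and was 0.43 with Xist. The median of this list was 0.07.

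Of 22 transcription factors and regulators of class I genes 0 passed in edgeR, with 2 higher and 2 lower by unadjusted p under 0.05, whereas DESeq2 and limma called 1 each. The gene both called was Ciita, the relative of Nlrc5 that activates class II genes, at 20.2, 10.6 and 13.1 CPM in WT replicates 1, 3 and 4 and at 8.28, 6.42 and 7.01 CPM in KO replicates 2, 3 and 4. Its groups did not overlap, and the log2 fold change was -1.02 ± 0.23 (SE, edgeR adjusted p = 0.0555). Of the 6 fits without 1 library it passed in that without WT replicate 3 (edgeR adjusted p = 0.0456). Other edgeR settings fell on either side of the threshold. The edgeR adjusted p was 0.0321 with the replicate block and 0.0467 with library totals as the only scaling. It was 0.0745 with Xist as a covariate and 0.0929 with length and GC trends taken out. Irf3, a factor that starts interferon transcription, had 0.28 ± 0.08 (edgeR adjusted p = 0.0945) and Stat3, which carries cytokine signals, 0.29 ± 0.13 (edgeR adjusted p = 0.194). Of 7 interferon receptor and kinase genes 0 passed in edgeR, DESeq2 or limma. Higher by unadjusted p under 0.05 were 2 genes, Ifngr2 (log2 fold change 0.25, edgeR adjusted p = 0.134) and Ifngr1 (0.21, edgeR adjusted p = 0.19), which form the receptor for interferon gamma. Jak2, a kinase that signals from this receptor, had -0.13 ± 0.08 (edgeR adjusted p = 0.351), with all KO libraries (132 to 133 CPM) below all WT libraries (142 to 152 CPM).

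Interferon-induced genes did not move in a common direction. Of 31 measured 1 rose, 0 fell and 30 did not pass, 16 had positive and 15 negative values, and the median was 0.03 (DESeq2 called 3 and limma 2). By unadjusted p under 0.05 in edgeR, 2 were higher and 4 lower, against 11.7% and 12.2% of all genes tested. The gene that rose was Cxcl9, a chemokine induced by interferon gamma, at 2.02, 1.99 and 0.977 CPM in WT replicates 1, 3 and 4 and at 4.63, 3.88 and 4.59 CPM in KO replicates 2, 3 and 4. The groups did not overlap. Its log2 fold change was 1.40 ± 0.28 (SE, edgeR adjusted p = 0.0427). Its call was lost without WT replicate 1, 3 or 4 or KO replicate 4 (edgeR adjusted p of 0.0932, 0.0627, 0.084 and 0.152) and with Xist as a covariate (edgeR adjusted p = 0.0733), where the log2 fold change was 1.36, beside 1.121 to 1.558 over the fits without 1 library. Receptors that bind class I gave 0 of 15 edgeR calls, with 3 higher by unadjusted p under 0.05, and 1 call each in DESeq2 and limma. In edgeR Klra17, an inhibitory receptor of the Ly49 family, was at 8.60 to 11.04 CPM in WT and 13.0 to 21.3 CPM in KO, a log2 fold change of 0.76 ± 0.18 (edgeR adjusted p = 0.0605). Of the 6 fits without 1 library it passed in 1, without KO replicate 2 (0.92, edgeR adjusted p = 0.026), and over the 6 the log2 fold change ran from 0.55 and the adjusted p up to 0.207, both without KO replicate 4. Klra3, of the same family, had 0.67 ± 0.29 (edgeR adjusted p = 0.2). Pirb, an inhibitory receptor of myeloid cells, had 0.39 ± 0.16 (edgeR adjusted p = 0.178).

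**Figure D5:**
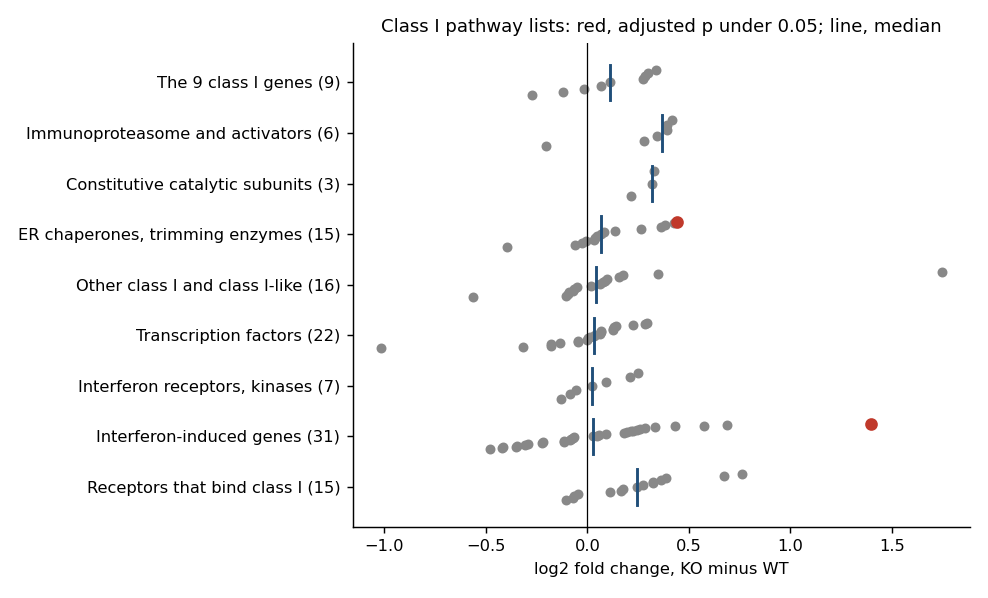
Log2 fold change of KO minus WT (horizontal axis) for every tested gene of the class I genes and of 8 lists of the pathway (rows, with the number tested), with list medians as vertical lines. Npepps and Cxcl9, in red, are the genes past the threshold, and the medians run from 0.02 (interferon receptors and kinases) to 0.37 (immunoproteasome).

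The genes whose levels ran most like the mean of the 9 class I genes over the 6 libraries were Chmp6, Mmd, Tapbpl, Rab11b and Lair1. That mean joins 6 members with positive and 3 with negative log2 fold changes. A gene that runs like it need not run like each member. Likeness was Pearson's r between the log2 CPM of a gene and the mean of the z-scored log2 CPM of the 9 genes, among 9293 genes whose log2 CPM averaged 3 or more. Values were 0.986 for Chmp6, a subunit of the membrane-cutting ESCRT-III complex, 0.972 for Mmd, 0.971 for Tapbpl, 0.970 for Rab11b, a GTPase of recycling endosomes, and 0.960 for Lair1, an inhibitory collagen receptor. Tapbpl encodes TAPBPR, a relative of tapasin that edits class I peptides, and was itself on the list of chaperones fixed for the pathway. With 6 libraries and this many genes, 39 genes exceeded 0.9, and the libraries share their depth and scaling, so r ranks these genes and tests nothing. None of the 5 genes passed between KO and WT in edgeR, with adjusted p between 0.372 and 0.784.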

How the data were processed

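The authors deposited unnormalized read counts of each gene in 6 bone marrow libraries, 3 WT and 3 KO, made by poly(A) selection per the labels' protocols. Trimmomatic 0.36, STAR 2.5.2b, Subread 1.5.2 with featureCounts, and the build GRCm38 are named in the submitters' processing notes. Settings, annotation, strand use and how multiply matching reads were handled: not given in the sources used here. Symbols, exon lengths and 3' UTRs came from GENCODE M21 (GRCm38). Of 49315 identifiers 49056 had a symbol. The others held 0.0171% of counts and were kept.

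KO was set against WT in edgeR 4.0.16 under R 4.3.3 with its robust quasi-likelihood test, after TMM scaling of the counts and the filterByExpr filter, two-sided, adjusted by Benjamini and Hochberg over all genes tested. Exact permutation p-values were computed for the ratios, as a description, since the ratios were chosen after their values were seen. The members and lists were chosen with earlier results of these data known. Named genes were the 9 members. Of each pathway list, those past the threshold were named (up to 6), or otherwise up to 3 with the smallest p. The 5 genes most like the mean of the members were named too. Others are named as chosen after their values were seen. The procedure was run on simulated counts drawn independently for each gene, which lack the shifts that many genes of a library can share. Alternatives were DESeq2 1.42.0 and limma 3.58.1, other scalings and filters, the replicate number as a block, Xist as a covariate, removal of length and GC trends, and each library left out.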

Additional observations from a re-analysis of the deposited data

How the results depend on the processing

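The count of class I genes past the threshold was 0 under every alternative except library totals as the only scaling, where it was 1 (Nlrc5, log2 fold change -0.34), and 0 in each fit without 1 library (range 0 to 0). Of 148 values of the 9 genes under alternatives, 138 kept their direction and their side of the threshold. Direction turned for Tap1 (0.0373 in limma and 0.0089 with the Xist covariate, and -0.0879 to 0.0481 over fits without 1 library), Tap2 (-0.00216 with library totals and -0.00655 with the replicate block) and Erap1 (0.0409 with the replicate block, and -0.174 to 0.00345 without 1 library). All these values were within the spread between libraries, and the cause was not tested.

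Over all genes 417 passed (159 higher, 258 lower). The count was 1492 with no filter on low counts (653 higher, 839 lower), 1641 with DESeq2 (857 higher, 784 lower), 1057 with limma (495 higher, 562 lower) and 209 with the Xist covariate. With library totals 490 passed (87 higher, 403 lower). Leaving out 1 library gave between 32 and 920 genes, namely 33, 199 and 37 when WT replicate 1, 3 or 4 was dropped and 568, 920 and 32 when KO replicate 2, 3 or 4 was. The replicate numbers 3 and 4 occur in both groups. Deviations from the group means correlated at 0.21 for number 3 and -0.14 for number 4, so the numbers were not taken to pair the libraries. With the replicate block 571 genes passed and 0 of the 9, and Npepps was lost (edgeR adjusted p = 0.0656). Of 316 values of 20 named pathway genes, 285 kept their direction and side, 11 lost and 20 gained a call, and 0 turned. The 9 genes had counts of at least 1220 per library.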
